A study of Mus musculus with 8 samples.

Results

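Described here are 44 genes of DNA replication and S phase, taken by symbol from the 55376 genes of the count table. The list was chosen with earlier results of these data known, so its shares beside all genes are descriptive. All 44 were found once, and all 44 passed the filter on low counts. They were measured by RNA sequencing in macrophages grown from the bone marrow of male mice aged 13 weeks, wild type (WT) or labelled DNMT3A-HET (HET). The labels do not describe the HET allele further. Marrow from 3 mice of each genotype was differentiated in M-CSF at 50 ng/mL, and IL-6 at 10 ng/mL, an inflammatory cytokine that signals through STAT3, was given to some cultures from day 6 for 2 days before RNA was collected on day 8. The 4 groups (WT control, WT IL-6, HET control and HET IL-6) held 2 libraries each, numbered 1 and 2. Which mouse gave which library, and whether mice were pooled, is not given in the labels, so the spread that p-values rest on is that between libraries, some of which may be technical.

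DNA is copied once in each cell cycle from origins that are licensed in G1. The origin recognition complex, Cdc6 and Cdt1 load the ring-shaped MCM2-7 helicase, which is switched on at the start of S phase when Cdc45 and the GINS complex join it. Polymerase alpha with its primase starts each strand, polymerases epsilon and delta extend the leading and lagging strands, and the clamp PCNA, loaded by the RFC complex, holds them on the template. Many of these genes are known targets of E2F transcription factors, which cyclin E and its kinase help to release from the retinoblastoma protein. Macrophages grown from marrow in M-CSF still divide in culture, and M-CSF is their mitogen.

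The summed level of the replication genes was highest in untreated HET cells and lowest in HET cells given IL-6, and in WT it was somewhat higher with IL-6 than without. Summed over the 44 genes, counts scaled to library size (CPM) were 3219 and 3316 in the WT control libraries and 3614 and 3423 after IL-6. In HET they were 3973 and 3726 in control and 2990 and 3025 after IL-6. No group overlapped another. Group means were 3268 ± 68.6 without and 3518 ± 135.1 with IL-6 in WT, and 3850 ± 174.7 without and 3008 ± 24.8 with IL-6 in HET (SD, n = 2 each). In bulk RNA, fewer cells of a type (here, cells in S phase) and less RNA per cell cannot be told apart.

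**Figure D1:**
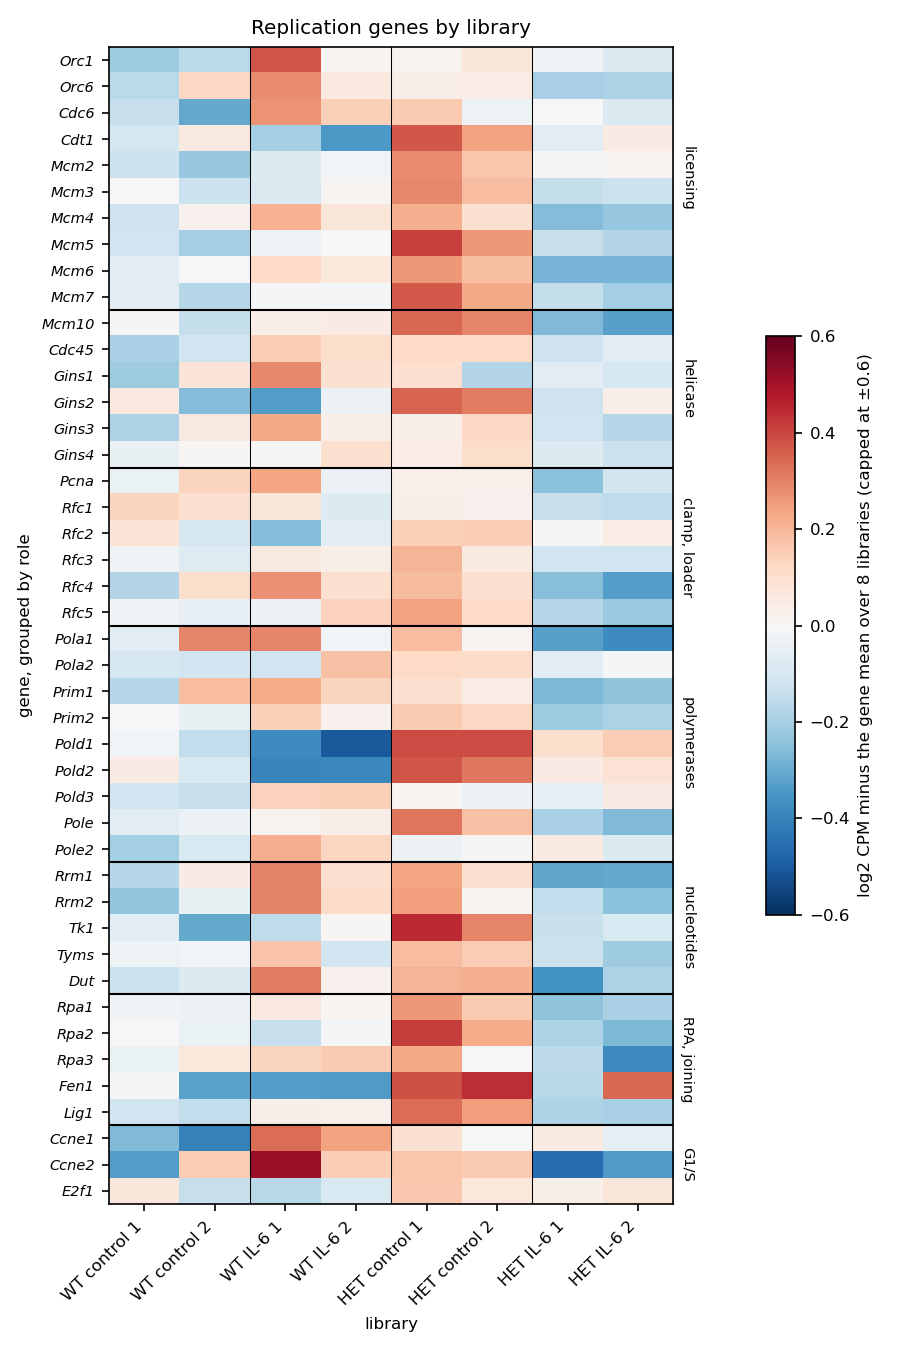
Heat map of the 44 genes (rows, grouped by role) in the 8 libraries (columns); colour gives log2 CPM minus the mean of the gene over the 8 libraries, capped at 0.6 each way. Most rows are above their mean in both HET control libraries and below it in both HET IL-6 libraries, while Pold1 and Pold2 are lowest in WT IL-6.

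Tests were made with edgeR's quasi-likelihood test on all 13721 genes that passed the filter, and a gene is called here when its Benjamini-Hochberg adjusted p was under 0.05. In HET, IL-6 lowered 22 of the 44 replication genes (50%), where 9.41% of all tested genes were called lower. None was called higher by edgeR, a count that was also 0 at an unadjusted p under 0.05, by DESeq2 and by limma voom, against 8.87% of all genes. Their median log2 fold change was −0.33, beside 0.01 over all genes tested. The 2 groups of libraries did not overlap for 38 members, all with HET IL-6 lower, where 32% of all genes were apart in that direction. Fewer members and fewer of all genes were called when any single HET library was left out. Each of these fits leaves 1 library in a group. The medians over the members were −0.29 and −0.36 without HET control libraries 1 and 2, and −0.30 and −0.32 without HET IL-6 libraries 1 and 2. The 8 genes Lig1, Mcm10, Mcm5, Mcm6, Mcm7, Pole, Rpa1 and Rpa2 were called whichever single library was left out.

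In WT, IL-6 raised 5 of the 44 genes, Ccne1, Cdc45, Cdc6, Pold3 and Rrm2, and lowered 2, Pold1 and Pold2. Of all tested genes 7.91% were called higher and 10.4% lower, so the share of replication genes called higher, 11.4%, lay near the background. The median was 0.12 over the members and −0.01 over all genes. This split depended on the scaling. With total counts alone 2 members were called higher and 3 lower, where 903 of all 13721 genes were called higher and 1712 lower. With an offset for GC content and exon length 10 members were called higher and 0 lower, where 1605 of all genes were called higher and 1540 lower. For 22 members both IL-6 libraries lay above both controls (24.1% of all genes), and for 5 both lay below (28.4%). When WT IL-6 library 1, WT control library 1 or any single HET library was left out, fewer members and fewer of all genes were called. The members' medians were 0.12 and 0.10 without these WT libraries, in that order, and 0.11 to 0.14 without a HET library. Each of these fits leaves 1 library in a group. Ccne1 was called whichever library was left out.

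Whether IL-6 acted differently in HET and WT was tested directly, as an interaction. It was called for 21 of the 44 genes (47.7%), where 8.12% of all genes were called. In each case the HET response was below the WT response, a direction called in 3.6% of all genes. No member was called the other way by edgeR, also with 0 at an unadjusted p under 0.05, by DESeq2 and by limma voom, where 4.52% of all genes were. The median difference was −0.47 over the members and 0.02 over all genes. The fitted response was lower in HET than in WT for 40 of the 44 members, against 47.7% of all genes. For 34 of them the estimate was above 0 in WT and below 0 in HET, for 9 it was below 0 in both, and for Pold3 alone it was above 0 in both. Most of these single estimates did not pass the test in WT: of the 22 genes that fell in HET, 20 were not called in WT, 1 (Rrm2) rose there and 1 (Pold1) fell there. The difference was called for fewer members and for fewer of all genes when any single HET library, WT control library 1 or WT IL-6 library 1 was left out. The members' medians were −0.42 and −0.49 without HET control libraries 1 and 2, and −0.48 and −0.46 without HET IL-6 libraries 1 and 2. They were −0.46 without WT control library 1 and −0.44 without WT IL-6 library 1. Each of these fits leaves 1 library in a group. Lig1, Mcm10, Mcm5, Mcm6 and Rrm1 were called whichever library was left out. With an offset for GC content and exon length, 25 members were called for the difference and 28 with IL-6 in HET, all lower. Over all 13721 genes the offset gave 945 and 1790 called lower. The median difference stayed between −0.53 and −0.42 over all alternatives.

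**Figure D2:**
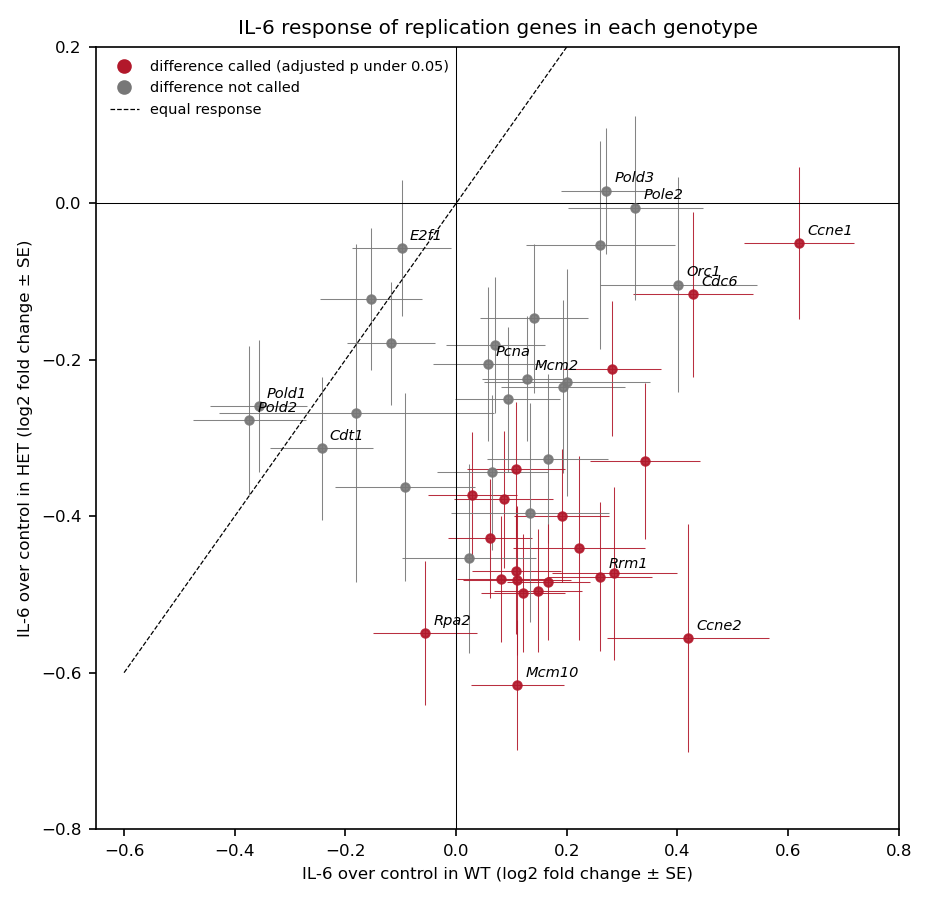
Log2 fold change of IL-6 over control in WT (x axis) and in HET (y axis) for each of the 44 genes, with bars of 1 SE; red points are the 21 genes whose responses differed between the genotypes, and the dashed line marks an equal response. All but 4 genes lie below the line, and Ccne1 lies farthest to the right.

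Between the genotypes, 11 of the 44 genes were higher in HET than in WT without IL-6, Ccne1, Lig1, Mcm10, Mcm2, Mcm3, Mcm5, Mcm7, Pold1, Pold2, Pole and Tk1. That is 25% of the members, against 2.81% of all genes called higher and 4.85% called in either direction. None was called lower (0 also at an unadjusted p under 0.05, by DESeq2 and by limma voom), against a background of 2.05%. After IL-6, 17 genes (38.6%) were lower in HET, against 8.8% of all genes, and 2, Pold1 and Pold2, were higher, against 13.2%. Medians over the members were 0.23 in control and −0.24 after IL-6, where all genes had −0.00 and −0.01. In 33 members the estimate was above 0 in control and below 0 after IL-6, in 8 it was above 0 in both and in 3 below 0 in both, though most of these single estimates did not pass the test. Ccne1, Lig1, Mcm10 and Pole passed both tests, higher in control and lower after IL-6. They made up 36.4% of the members higher in control and 23.5% of those lower after IL-6. The same overlap is not given for all genes, so these shares have no background. With the GC and length offset, 16 members were called higher in control and 0 lower, where 370 of all genes were called higher and 291 lower. Ccne1 and Pold2 were then no longer called in control (edgeR adjusted p = 0.0559 and 0.161). After IL-6 the offset gave 17 members lower and 0 higher, and over all genes 794 lower and 810 higher, where 1814 were called higher without it. Orc6, Prim2, Rfc4, Rpa3, Pold1 and Pold2 were then not called. The 2 comparisons within a treatment share no library, but each shares its HET and WT libraries with the IL-6 comparisons above. The calls in control rested on few libraries. Without HET control library 1 the member calls were lost. They were fewer without HET control library 2, WT control library 2 or either HET IL-6 library. In each of these fits fewer of all genes were called as well, and 1 library was left in a group. The members' median was 0.19 without HET control library 1 and 0.28 without HET control library 2. After IL-6, where 19 were called in all, fewer members and fewer of all genes were called when WT IL-6 library 1 or any single HET library was left out. The members' medians were −0.19 without WT IL-6 library 1, and −0.25 and −0.24 without HET IL-6 libraries 1 and 2. Without either HET control library the median was −0.23.

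**Figure D3:**
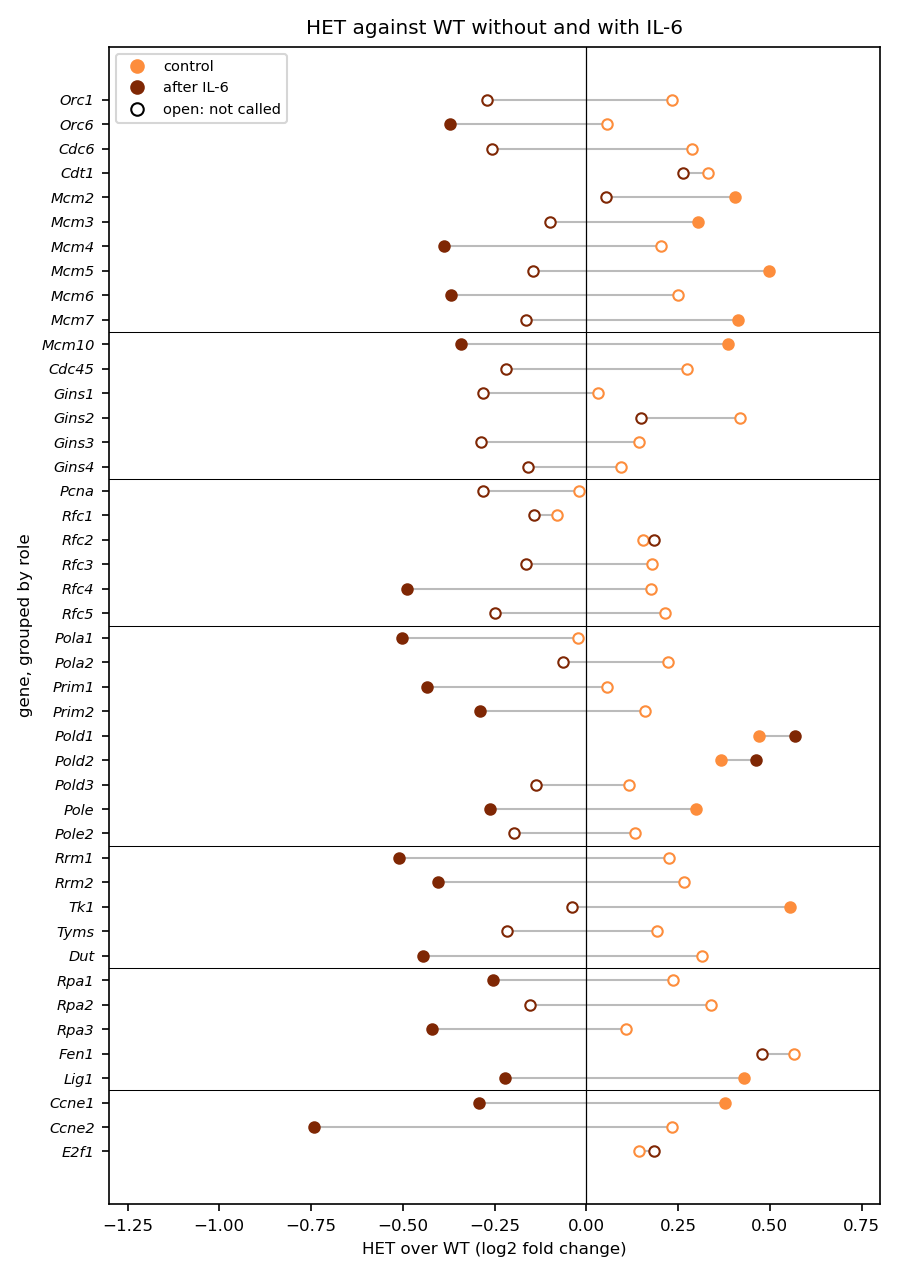
Log2 fold change of HET over WT (x axis) for each gene (y axis, grouped by role) in control (light points) and after IL-6 (dark points); filled points passed the test and open points did not. Most light points lie to the right of 0 and most dark points to the left, while Pold1 and Pold2 have both points filled and to the right.

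Some facts of the whole series bear on all of these values. Total counts ran from 18926641 to 24881197 in every library other than HET IL-6 library 2, with 50137897. A floor of 3 counts came to between 0.0598 and 0.159 CPM, below every library value of every replication gene. The macrophage marker list (11 genes) summed to between 15380 and 20180 CPM, and Csf1r, the M-CSF receptor, stood at 1854 to 2449 CPM. Lists for dendritic, B, T and NK, mast, erythroid and stromal cells each summed to at most 11.25 CPM in any library, and Cd3e had no count in any. Summed markers of monocytes ran from 30.7 to 90.7 CPM and of neutrophils from 2.67 to 12.4. Those of endothelial cells ran from 27.8 to 56.1 and of megakaryocytes from 122 to 296. None of these 4 lists was highest in untreated HET cells and lowest in HET cells given IL-6. The B cell list was, at low levels, with group means of 1.364 and 0.94 CPM. Its WT means were 1.359 CPM untreated and 1.008 CPM after IL-6. Within each treatment, HET and WT libraries overlapped for the B cell list. Dnmt3a itself stood at 275 and 244 CPM in WT control and 174.5 and 183 after IL-6, and at 166 and 248 in HET control and 140.1 and 213 after IL-6, and the edgeR adjusted p for HET against WT was 0.506 in control and 0.972 after IL-6.

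The myeloid progenitor list moved in a similar order to the replication genes in HET, with sums of 22.0 to 29.97 CPM in control and 13.7 to 16.3 after IL-6, and rose from between 17.9 and 18.4 to between 33.2 and 43.4 CPM in WT. Cd34 carried it, at 10.4 and 13.0 CPM in WT control and 41.5 and 30.9 after IL-6, and at 27.1 and 18.1 in HET control and 12.8 and 10.2 after IL-6. Kit, the other of the 2 markers of 8 that passed the filter, went the opposite way in WT, from 7.77 and 4.63 to 1.32 and 1.55 CPM. Mpo and Elane, which define granulocyte and monocyte progenitors, were at no more than 0.262 CPM in any library, and Ms4a3 had no count in 4 of the 8. The part of such cells in the replication genes' values was not tested.

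Origin licensing genes (Orc1, Orc6, Cdc6, Cdt1 and Mcm2 to Mcm7) are described first. In HET, 6 of the 10 fell with IL-6, and for 6 of the 10 the response differed between the genotypes. Counts for this and the later roles stand beside 9.41% of all genes called lower with IL-6 in HET. A lower HET response was called for 3.6% of all genes. Their summed CPM was 1092 and 1093 in the WT control libraries, 1169 to 1188 in WT IL-6, 1316 to 1424 in HET control and 1029 to 1030 in HET IL-6.

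Mcm6, a subunit of the helicase ring, stood at 299 and 314 CPM in WT control and 339 and 326 after IL-6, and at 374 and 354 in HET control and 257.5 and 258 after IL-6. Every HET control library was above every WT library, and every HET IL-6 library was below. Its log2 fold change with IL-6 was −0.50 ± 0.08 (SE) in HET (edgeR adjusted p = 0.000346) and 0.12 ± 0.08 in WT (adjusted p = 0.314), and the difference was −0.62 ± 0.11 (adjusted p = 0.00365).

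Mcm5, another ring subunit, had the largest difference of the 6 subunits. It stood at 177 and 167 CPM in WT control and 188 and 192.5 after IL-6, and at 255 and 230.2 in HET control and 174.5 and 170.0 after IL-6. Both HET control libraries were apart from all others, while HET IL-6 lay within the range of WT control. HET was above WT in control by 0.50 ± 0.08 on the log2 scale (edgeR adjusted p = 0.00485) and the response differed by −0.64 ± 0.11 (adjusted p = 0.0037).

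The other 4 ring subunits, which assemble with Mcm5 and Mcm6 in equal numbers, also had their highest group mean in HET control. Mcm7 went from 162 and 147 CPM in HET control to 114 and 109 after IL-6, and was at 120.5 and 112 in WT control and 125 in both WT IL-6 libraries. Mcm4 went from 147.5 and 135.5 to 106 and 108.5 CPM in HET, and from 117 and 129 to 147 and 134 in WT. Both fell in HET, by 0.47 ± 0.08 and by 0.40 ± 0.08 (edgeR adjusted p = 0.000905 and 0.00428), and for both the response differed, by −0.58 ± 0.11 and by −0.59 ± 0.12 (adjusted p = 0.00796 and 0.0094).

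Mcm3 stood at 216 and 201 CPM in HET control and 160.4 and 162 after IL-6, against 176.5 and 162 in WT control and 166 and 179 in WT IL-6. Mcm2 stood at 125 and 115 CPM in HET control and 102 and 104 after IL-6, against 93.8 and 87.6 in WT control and 96.7 and 102 in WT IL-6. For Mcm3 the fall in HET of 0.37 ± 0.08 and the difference of −0.40 ± 0.11 passed the test (edgeR adjusted p = 0.00468 and 0.0445). For Mcm2 they did not, at −0.22 ± 0.08 and −0.35 ± 0.11 (adjusted p = 0.0684 and 0.0754), although HET was above WT in control by 0.40 ± 0.08 (adjusted p = 0.0147). With the GC and length offset both passed for Mcm2, at −0.23 and −0.38 (edgeR adjusted p = 0.00859 and 0.00795).

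Of the loaders, Cdc6, which recruits the ring to origins and whose library values were added after they were seen, rose with IL-6 in WT, from 20.3 and 18.1 to 26.9 and 24.6 CPM. In HET its values of 24.9 and 21.9 CPM in control overlapped those of 22.3 and 21 after IL-6. The rise in WT was 0.43 ± 0.11 (edgeR adjusted p = 0.0128), and the response differed by −0.54 ± 0.15 (adjusted p = 0.0411). Cdt1, the partner of Cdc6, fell in HET by 0.31 ± 0.09 (adjusted p = 0.0279) but had −0.24 ± 0.09 in WT as well (adjusted p = 0.0911), and its difference was −0.07 ± 0.13. With the GC and length offset these were −0.08 in WT and −0.27 for the difference (edgeR adjusted p = 0.644 and 0.226), while the change in HET was −0.35 (adjusted p = 0.0145). Orc1, the largest subunit of the origin recognition complex, had no called comparison, and Orc6, another subunit, had 1, being lower in HET after IL-6 by 0.37 ± 0.11 (adjusted p = 0.0291). With the offset the Orc6 value was −0.26 (adjusted p = 0.0616), and the call was lost in 9 of 24 alternatives. Orc1 was called higher with IL-6 in WT with the offset, at 0.38 (edgeR adjusted p = 0.0464).

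The promoters of 4 genes with a called difference are shown because they hold matches to the E2F motif, the element through which S phase genes are known to be switched on. Sequences are from RefSeq on build GRCm38.p6, written 5′ to 3′ on the strand of the gene. Capitals mark the letters TTTCCCGC, TTTCGCGC, TTTGCCGC or TTTGGCGC or their reverse complements GCGGGAAA, GCGCGAAA, GCGGCAAA and GCGCCAAA. For Mcm6, Mcm5 and Mcm7 the 200 bases before the start site are given. For Lig1, a DNA ligase, only 30 bases around the match of an alternative start are given. They lie at chr7:13278841-13278870 (Lig1, plus strand), chr1:128359706-128359905 (Mcm6, minus strand), chr8:75109309-75109508 (Mcm5, plus strand) and chr5:138171884-138172083 (Mcm7, minus strand).
Lig1: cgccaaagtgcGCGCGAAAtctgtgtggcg
Mcm6: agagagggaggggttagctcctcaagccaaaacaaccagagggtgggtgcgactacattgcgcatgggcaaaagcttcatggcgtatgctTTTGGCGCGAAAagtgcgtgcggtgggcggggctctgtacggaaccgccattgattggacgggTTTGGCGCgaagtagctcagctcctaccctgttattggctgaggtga
Mcm5: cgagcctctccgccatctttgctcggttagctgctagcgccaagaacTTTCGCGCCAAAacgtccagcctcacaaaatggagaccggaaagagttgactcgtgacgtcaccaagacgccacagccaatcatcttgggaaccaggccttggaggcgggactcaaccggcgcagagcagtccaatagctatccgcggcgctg
Mcm7: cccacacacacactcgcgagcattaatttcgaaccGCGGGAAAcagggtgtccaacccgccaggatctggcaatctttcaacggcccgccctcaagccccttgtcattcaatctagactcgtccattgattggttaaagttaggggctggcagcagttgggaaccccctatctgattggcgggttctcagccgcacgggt

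In Mcm6 the matches began 110, 106 and 47 bases before the start, the first and second overlapping. In Mcm5 they began 153 and 149 bases before it and overlapped, in Mcm7 the match shown began 165 bases before it, and in Lig1 it began 27 bases after it. RefSeq windows of 300 bases, from 250 before to 50 after a start, were at hand for 36 of the 44 genes, with 41 windows in all. There was none for Mcm4, Gins1, Gins2, Gins4, Rfc2, Prim2, Pole and Ccne2. Such a match was found in 14 of the 41 windows (34.1%), against 2.26% of all 32851 windows and 1 of 23 windows (4.35%) of a list of G2 and mitosis genes. The letters CCAAT, on either strand, were in 53.7% of the members' windows, 37.4% of all windows and 82.6% of the windows of G2 and mitosis genes. Among members with a window, an E2F match was held by 6 of 17 genes whose response differed and by 8 of 19 whose difference was not called. These counts describe letters in a window and no site was measured.

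Among the genes that activate the helicase (Mcm10, Cdc45 and Gins1 to Gins4), Mcm10 was the one that fell with IL-6 in HET. Mcm10 (chr2:4989714-5012791, mm10, minus strand), which binds the ring and is needed to start unwinding, was at 56.4 and 50.8 CPM in WT control and 57.7 and 58.2 after IL-6, and at 71.2 and 68.9 in HET control and 46.7 and 44.8 after IL-6. HET control was above all other libraries and HET IL-6 below all others. The fall in HET was 0.62 ± 0.08 (edgeR adjusted p = 0.000127), the largest among the members, and the difference was −0.73 ± 0.12 (adjusted p = 0.00237).

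Cdc45, which joins the ring to form the active helicase, was at 26.0 and 27.4 CPM in WT control and 32.9 and 32.0 after IL-6, and at 32.3 in both HET control libraries and 27.3 and 28.5 after IL-6. WT IL-6 and HET control lay together above WT control and HET IL-6. It rose in WT by 0.28 ± 0.09 (edgeR adjusted p = 0.0389), and its difference of −0.49 ± 0.12 passed the test (adjusted p = 0.0263), while its change in HET of −0.21 ± 0.09 did not (adjusted p = 0.112). With the GC and length offset the change in HET was −0.23 and passed (edgeR adjusted p = 0.035). None of the 4 GINS genes, which form the third component of that helicase, was called in any of the 5 comparisons. Their differences were all below 0, from −0.43 for Gins3 to −0.25 for Gins4. With the GC and length offset Gins2 was called lower with IL-6 in HET, at −0.38 (edgeR adjusted p = 0.0085), where it had −0.36 without it (adjusted p = 0.0511). Gins2 shares 67.3% of its exon bases with another gene and its values are uncertain.

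Of the 6 clamp and clamp loader genes, 2 fell with IL-6 in HET, and for the same 2 the response differed. Pcna, the sliding clamp, was the gene of the list with the highest level per length, 175 CPM per kilobase of exon averaged over the libraries. It was at 406 and 459 CPM in WT control, 492 and 408 in WT IL-6, 427 in both HET control libraries, and 353 and 387 in HET IL-6. The WT groups overlapped, and HET IL-6 was below all other libraries. No comparison of Pcna passed the test: the change in HET was −0.21 ± 0.10 (edgeR adjusted p = 0.178) and HET against WT after IL-6 was −0.28 ± 0.10 (adjusted p = 0.0542).

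Of the 5 RFC subunits, which open the clamp around DNA, Rfc4 and Rfc5 fell in HET and differed in response. Rfc4 went from 20.04 and 18.8 to 14.7 and 14.0 CPM in HET and was at 15.5 and 18.9 in WT control and 21.3 and 18.8 in WT IL-6. Rfc5 went from 57.5 and 52.9 to 43.2 and 41.8 CPM in HET and was at 48.04 and 47.1 in WT control and 47.5 and 53.6 in WT IL-6. Their differences were −0.66 ± 0.17 and −0.46 ± 0.13 (edgeR adjusted p = 0.027 and 0.0363). Rfc1, Rfc2 and Rfc3 had no called comparison, with changes in HET of −0.18, −0.12 and −0.25. With the GC and length offset the change of Rfc1 in HET was −0.18 and passed (edgeR adjusted p = 0.042).

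Of the 9 polymerase and primase genes, 4 fell with IL-6 in HET, and for 2, Pole and Prim2, the response differed. Pole, the catalytic subunit of polymerase epsilon, was highest in HET control and lowest in HET IL-6, with 76.2 and 77.8 CPM in WT control and 81.0 and 82.0 after IL-6, and at 99.5 and 90.03 in HET control and 69.7 and 66.3 after IL-6. The 4 groups did not overlap. It fell in HET by 0.48 ± 0.08 and its response differed by −0.56 ± 0.11 (edgeR adjusted p = 0.000759 and 0.00924). Prim2, the large primase subunit, was at 30.8 and 29.8 CPM in WT control and 33.9 and 31.4 after IL-6, and at 34.2 and 33.5 in HET control and 26.5 and 26.9 after IL-6. It fell in HET by 0.34 ± 0.09 and differed by −0.45 ± 0.12 (adjusted p = 0.0137 and 0.0403). Pola1, the catalytic subunit of polymerase alpha, fell in HET by 0.45 ± 0.12 (adjusted p = 0.0173), while its difference of −0.48 ± 0.17 was not called (adjusted p = 0.11). Prim1, the small primase subunit, had −0.33 ± 0.11 in HET (adjusted p = 0.051) and was lower in HET than in WT after IL-6 by 0.44 ± 0.11 (adjusted p = 0.0129). Pola2 and Pole2, accessory subunits, had no called comparison. With the GC and length offset the differences of Pola1 and Prim1 were called, at −0.41 and −0.46 (edgeR adjusted p = 0.0207 and 0.017). The change of Prim1 in HET was then −0.31 (adjusted p = 0.0106).

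Pold1 and Pold2 of polymerase delta were higher in HET in both treatments, and Pold1 is given by library, a choice made after its values were seen. Pold1, the catalytic subunit, was at 47.1 and 43.1 CPM in WT control and 36.7 and 33.6 after IL-6, and at 62.4 and 62.5 in HET control and 51.3 and 53.0 after IL-6. All 4 HET libraries were above all 4 WT libraries, and IL-6 libraries were below the controls of their genotype. It fell with IL-6 in WT by 0.36 ± 0.09 and in HET by 0.26 ± 0.08 (edgeR adjusted p = 0.0112 and 0.0466), and the difference of 0.10 ± 0.12 was not called (adjusted p = 0.691). HET was higher by 0.47 ± 0.09 in control and by 0.57 ± 0.09 after IL-6 (adjusted p = 0.00951 and 0.000737).

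Pold2, an accessory subunit, had similar estimates, 0.37 ± 0.10 and 0.46 ± 0.10 for HET over WT (edgeR adjusted p = 0.0481 and 0.0059). Pold3, another accessory subunit, rose in WT by 0.27 ± 0.08 (adjusted p = 0.0319) and had 0.02 ± 0.08 in HET, with HET over WT at 0.12 in control and −0.14 after IL-6, neither called. The 4 members with the highest GC content were Pold1 (61.0%), Pold2 (58.8%), E2f1 (58.3%) and Cdt1 (57.8%). With an offset for GC content and exon length, HET over WT after IL-6 became 0.11 ± 0.08 for Pold1 and 0.08 for Pold2 (edgeR adjusted p = 0.376 and 0.595), and the changes in WT became −0.14 and −0.18 (adjusted p = 0.229 and 0.181). The change in HET with the offset was −0.31 for both (adjusted p = 0.00533 and 0.0107). The differences of the response with the offset were below 0, at −0.17 and −0.14, and not called (edgeR adjusted p = 0.3475 and 0.534).

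Genes that supply nucleotides, Rrm1, Rrm2, Tk1, Tyms and Dut, fell in HET, 5 of 5, with a median of −0.47. Among all 44 members 22 fell. For 4 of the 5, all but Tyms, the response differed. Their summed CPM was 480.1 to 524 in WT control, 563.5 to 628.5 in WT IL-6, 581 to 645.5 in HET control and 452 to 456.5 in HET IL-6.

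Rrm1, the large subunit of ribonucleotide reductase, was at 236 and 275 CPM in WT control and 327 and 284 after IL-6, and at 313 and 284.5 in HET control and 214 and 215 after IL-6. HET control lay within the range of WT IL-6, and HET IL-6 was below all others. The difference was −0.74 ± 0.13 (edgeR adjusted p = 0.00491), and HET against WT after IL-6 was −0.51 ± 0.10 (adjusted p = 0.00244), or −0.32 with the GC and length offset (adjusted p = 0.00333).

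Rrm2, the small subunit, was the one member that rose in WT and fell in HET. It went from 112.5 and 128 to 162 and 143 CPM in WT and from 156 and 133 to 119 and 111 in HET. The IL-6 libraries were above the controls in WT and below them in HET, without overlap. The changes were 0.34 ± 0.10 in WT and −0.33 ± 0.10 in HET (edgeR adjusted p = 0.0282 and 0.0336), and the difference was −0.67 ± 0.14 (adjusted p = 0.011).

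Dut, which removes dUTP so that uracil does not enter DNA, was at 19.6 and 20.3 CPM in WT control and 26.7 and 21.9 after IL-6, and at 24.8 and 24.9 in HET control and 16.8 and 18.9 after IL-6. HET IL-6 was below all others. Its difference was −0.76 ± 0.16 (edgeR adjusted p = 0.0106). Tk1, the S phase thymidine kinase, had the largest called gap between untreated HET and WT, 0.55 ± 0.10 (adjusted p = 0.00765), and fell in HET by 0.48 ± 0.10 (adjusted p = 0.00269). After IL-6 the genotypes differed for Tk1 by −0.04 ± 0.10. Tyms, thymidylate synthase, fell in HET by 0.34 ± 0.10 (adjusted p = 0.0257), while its difference of −0.41 ± 0.14 was not called (adjusted p = 0.0957). With the GC and length offset the difference of Tyms was −0.38 and passed (edgeR adjusted p = 0.0466).

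Among genes of single-strand binding and Okazaki fragment joining, 3 of 5 fell in HET and the same 3, Lig1, Rpa1 and Rpa2, differed in response. Lig1, the ligase that seals lagging strand fragments and whose promoter is shown above, was at 104 and 102 CPM in WT control and 116 and 115 after IL-6, and at 142 and 134 in HET control and 99.2 and 98.6 after IL-6. The 4 groups were apart from each other. Lig1 fell in HET by 0.48 ± 0.07 and was higher in HET in control by 0.43 ± 0.07 (edgeR adjusted p = 0.000379 and 0.00765). The difference was −0.65 ± 0.11 (adjusted p = 0.00237), which shares the smallest adjusted p among the members with Mcm10.

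Rpa1, the large subunit of the single-strand binding protein RPA, was at 162 and 160.3 CPM in WT control and 171 and 165 after IL-6, and at 197 and 183 in HET control and 139 and 143 after IL-6. The 4 groups did not overlap, with HET control at the top and HET IL-6 at the bottom. Rpa1 fell in HET by 0.43 ± 0.08 and Rpa2, the middle subunit, by 0.55 ± 0.09 (edgeR adjusted p = 0.00114 and 0.00076), each with a difference of −0.49 (adjusted p = 0.0131 and 0.0346). Rpa3, the small subunit, passed the test in 1 comparison, being lower in HET than in WT after IL-6 by 0.42 ± 0.14 (adjusted p = 0.0467). With the GC and length offset that value was −0.06 (edgeR adjusted p = 0.862), and the call was lost in 16 of 24 alternatives. Fen1, the nuclease that trims fragment ends, was at 2.09 to 3.60 CPM and had no called comparison. Other genes overlap 84.2% of its exon bases, and its values are uncertain.

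Of the G1/S regulators, Ccne1 and Ccne2, the E cyclins that start S phase, differed in different ways. Ccne1 was at 20.5 and 18.6 CPM in WT control and 31.0 and 29.1 after IL-6, and at 26.2 and 24.6 in HET control and 25.5 and 23.6 after IL-6. Both WT IL-6 libraries were above all others, and the HET groups overlapped. It rose in WT by 0.62 ± 0.10 (edgeR adjusted p = 0.000518), the largest rise of the list, and had −0.05 ± 0.10 in HET (adjusted p = 0.786). The difference of −0.67 ± 0.14 was called (adjusted p = 0.0104).

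Ccne2 was at 19.96 and 28.0 CPM in WT control and 35.9 and 27.9 after IL-6, and at 28.3 and 28.1 in HET control and 18.3 and 19.9 after IL-6. Its WT groups overlapped and its HET groups did not. It fell in HET by 0.56 ± 0.15 (edgeR adjusted p = 0.0159), and its difference of −0.98 ± 0.21 was the largest of the members and also among the least precise (adjusted p = 0.0114). HET against WT after IL-6 was −0.74 for Ccne2, or −0.45 with the GC and length offset (edgeR adjusted p = 0.00332 and 0.00366). Ints8 overlaps 17.4% of the exon bases of Ccne2.

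E2f1, an activator among the E2F factors, had no called comparison. It was at 75.8 and 65.7 CPM in WT control and 64.3 and 67.9 after IL-6, and at 80.8 and 75.5 in HET control and 74.2 and 76.0 after IL-6. Its HET groups overlapped, and its difference was 0.04 ± 0.12 (edgeR adjusted p = 0.89). With the GC and length offset the difference was −0.18 (adjusted p = 0.236).

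**Figure D4:**
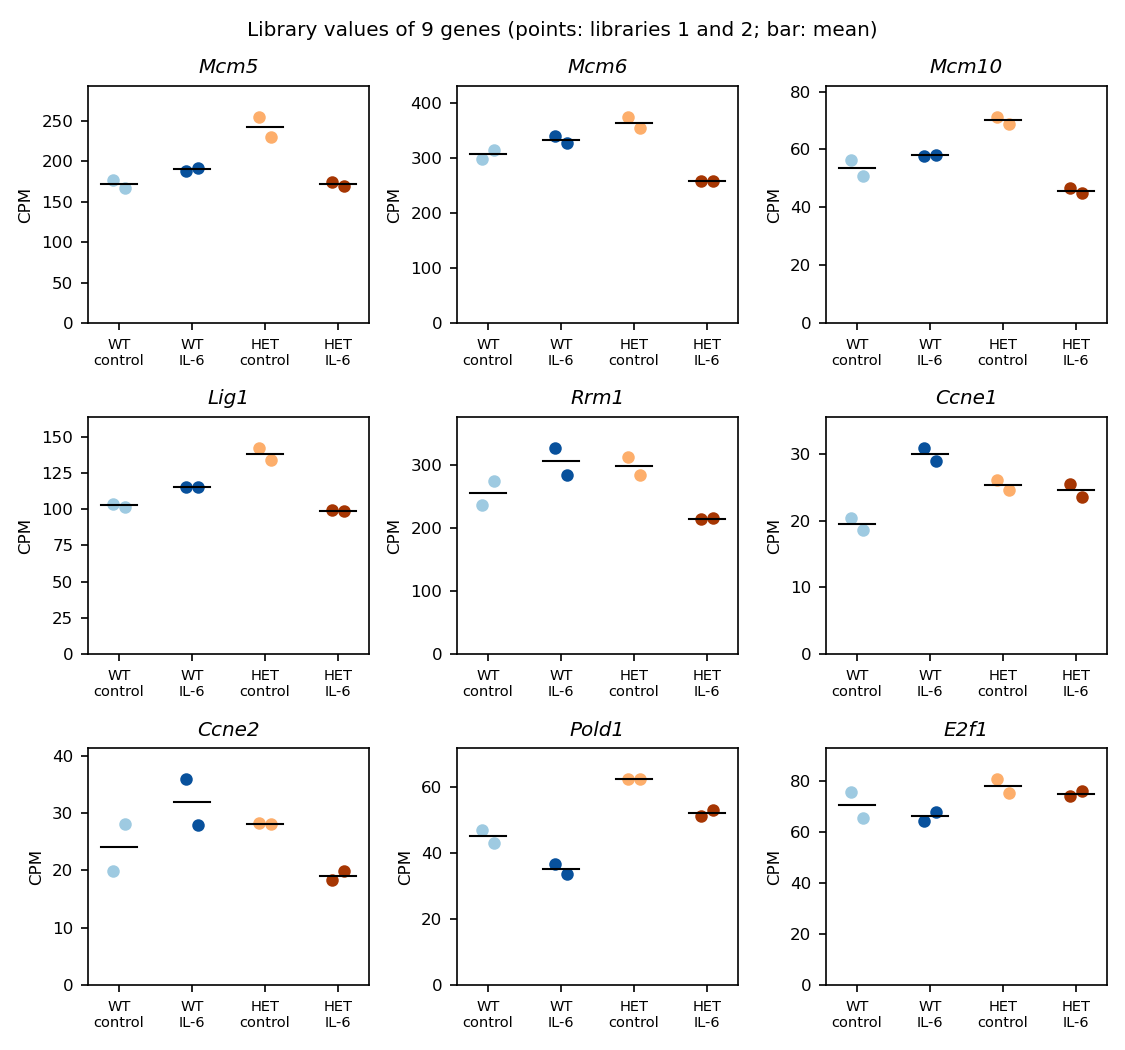
CPM of 9 genes (y axes, from 0) in the 4 groups (x axes); points are libraries 1 and 2 and bars are group means. Mcm6, Mcm10 and Lig1 are highest in HET control and lowest in HET IL-6, Ccne1 is highest in WT IL-6, and Pold1 is higher in HET in both treatments.

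Levels of the subunits of 1 complex were compared per length, as CPM per kilobase of exon averaged over the 8 libraries. Within MCM2-7 they ran from 14.8 for Mcm2 to 67.5 for Mcm6, a ratio of 4.55. Within GINS they ran from 2.50 for Gins3 to 22.4 for Gins4, and within RFC from 6.92 for Rfc3 to 17.5 for Rfc1. The 3 polymerase delta subunits were the closest, from 10.0 for Pold1 to 11.2 for Pold3. Rrm2 was at 48.04 and Rrm1 at 24.4, and Rpa1 was at 29.6 where Rpa3 was at 7.09. The exon length is that of all annotated isoforms joined, so these ratios also depend on which isoforms were made.

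**Figure D5:**
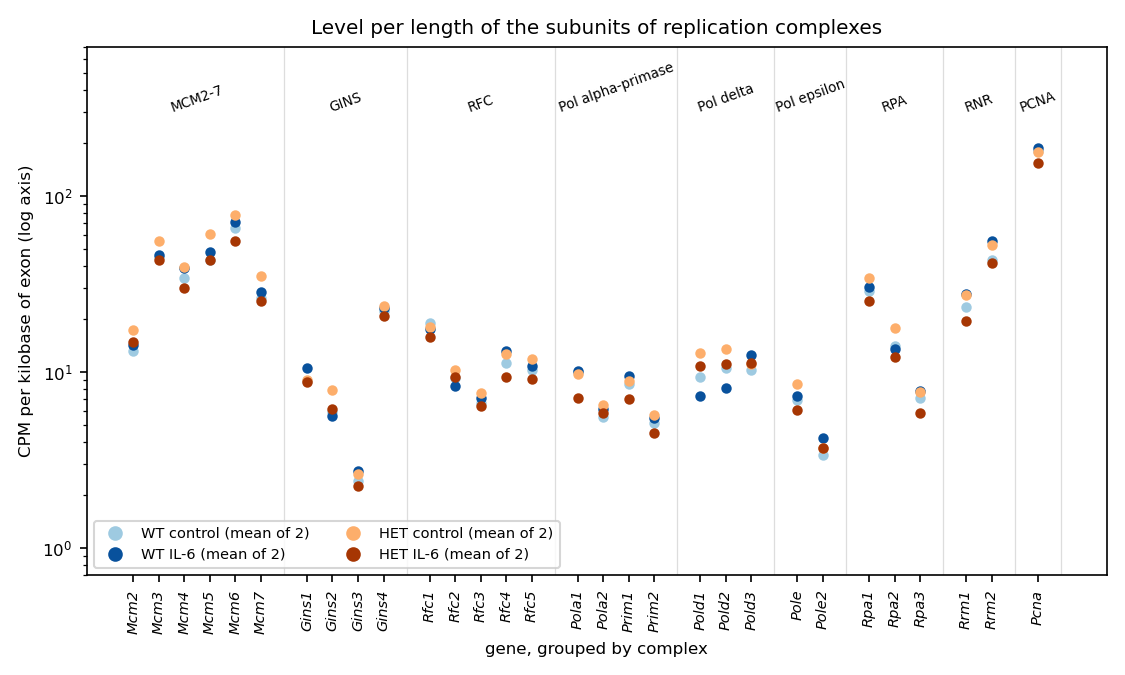
Level per length of the subunits of replication complexes (x axis), in CPM per kilobase of exon on a log axis (y axis); each point is the mean of 2 libraries of a group. Pcna is the highest and Gins3 the lowest. The spread within a complex is larger than the spread between groups for MCM2-7 and GINS, and also for RFC, RPA and ribonucleotide reductase.

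Other genes of the same processes, from lists that hold none of the 44, were counted in the same comparisons. These lists, too, were chosen with earlier results of these data known. Their counts stand beside 9.41% of all genes called lower with IL-6 in HET, 3.6% with a lower HET response, 2.81% higher in HET in control and 8.8% lower in HET after IL-6. Of 26 genes of G2 and mitosis, 23 fell with IL-6 in HET, with a median of −0.47, and for 21 the response differed, with a median of −0.57. Without IL-6, 5 were higher in HET, and after IL-6, 17 were lower. In WT 1 of the 26 was called, as lower. Cdk1, the mitotic kinase, had a difference of −0.69 ± 0.11, and Ccnb1, its cyclin partner, of −0.69 ± 0.12 (edgeR adjusted p = 0.00209 and 0.00378). Mki67, the proliferation marker Ki-67, was at 784 and 939 CPM in WT control and 989.7 and 891 after IL-6, and at 975 and 930.4 in HET control and 667 and 677 after IL-6. It fell in HET by 0.50 ± 0.09 (adjusted p = 0.00173) and differed by −0.63 ± 0.13 (adjusted p = 0.011).

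Of 20 replication checkpoint genes, 11 fell with IL-6 in HET and 9 differed in response. Clspn, a fork protein that passes the checkpoint signal to Chk1, had a difference of −0.75 ± 0.11 and Fanci, of the Fanconi anaemia pathway, of −0.76 ± 0.14 (edgeR adjusted p = 0.0014 and 0.00564). Of 30 genes of E2F, RB and G1 control, 15 fell and 2 rose with IL-6 in HET, and 9 differed in response. These included E2f7 and E2f8, repressors of the E2F family, with −0.81 ± 0.13 and −0.61 ± 0.12, and E2f2, an activator, with −0.62 ± 0.11 (adjusted p = 0.00268, 0.00786 and 0.00545).

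Of 11 genes of chromatin duplication, 4 fell in HET and 3 differed: Asf1b, a histone chaperone, Uhrf1, which guides maintenance methylation, and Chaf1b, of the CAF-1 histone loader, with −0.58, −0.56 and −0.41 (edgeR adjusted p = 0.00629, 0.00749 and 0.0461). Of 28 other origin and fork genes, 7 fell in HET and 4 differed, among them Ticrr, needed to fire origins, with −0.54 ± 0.13, and Gmnn, the inhibitor of Cdt1, with −0.45 ± 0.12 (adjusted p = 0.0248 and 0.0391). Of 27 other genes of nucleotide synthesis, 3 fell with IL-6 in HET, a share near that of all genes for this comparison. After IL-6, 9 of the 27 were lower in HET than in WT and 1 was higher, beside 8.8% and 13.2% of all genes. For 2, Ctps and Impdh2, the response was lower in HET, and for 1, Tk2, the mitochondrial thymidine kinase, it was higher. The share of genes with a called lower difference was thus largest in the G2 and mitosis list, above that of the 44 replication genes, a description of counts with no test between the lists. In HET against WT after IL-6, 11 of the 20 checkpoint genes were lower and 1 higher. Of the 30 E2F, RB and G1 genes 6 were lower and 3 higher. Of the 11 chromatin genes 4 were lower and 0 higher, and of the 28 origin and fork genes 9 were lower and 2 higher.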

How the data were processed

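RNA was sequenced from 8 macrophage libraries. The deposited counts are raw whole-number counts per gene, with exon length as a further column in bases. Tools named in the submitters' processing notes are STAR 2.7.9a, featureCounts 1.6.2, fastp 0.12.4 and SAMtools 1.9, with build mm10. Neither annotation release nor strand setting is given in the sources, so overlapping genes cannot be told apart. Columns were matched to libraries by name. Among the symbols 26 read as dates and 4 rows shared a symbol, and none of these was a replication gene.

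From the deposited counts, edgeR 4.0.16 in R 4.3.3 was run on all 13721 genes kept by filterByExpr (minimum count 10), with TMM scaling, 1 mean per group, robust dispersions and 4 residual degrees of freedom. Tests were 2-sided quasi-likelihood F tests with Benjamini-Hochberg adjustment over all tested genes, and calls had an adjusted p under 0.05. One spread was estimated per gene over all groups, although WT libraries differed more from each other than HET libraries: the median size of the log2 difference between the libraries of a group was 0.18 (control) and 0.16 (IL-6) for WT, and 0.10 and 0.089 for HET. Every such pair differed by more than sampling noise. CPM are TMM-scaled, and SE and SD are as stated.

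GC content came from gene models matched by symbol for 98.4% of genes, including all 44. The members, the role lists and the pathway and cell type lists were chosen with earlier results of these data known. All 44 members could be named. Library values are given for the 2 members of each role with the smallest p for the difference, and for Ccne1, Ccne2, E2f1, Pcna, Rrm2 and Mcm2 to Mcm7, and, outside this rule and chosen after their values were seen, for Cdc6 and Pold1. Pathway lists gave up to 4 genes by smallest p. Alternatives used DESeq2 1.42.0, limma 3.58.1 (voom), other scalings and filters, a GC and length offset, a replicate block and fewer libraries. The fitting code was tested on simulated data.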

Additional observations from a re-analysis of the deposited data

Results flagged for a closer look

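For 21 replication genes the IL-6 response differed between HET and WT by a test of the difference itself (edgeR's quasi-likelihood test, adjusted p under 0.05), each with the HET response below the WT response. The difference on the log2 scale was −0.98 for Ccne2, −0.76 for Dut, −0.74 for Rrm1, −0.73 for Mcm10, −0.67 for Ccne1 and for Rrm2, −0.66 for Rfc4, −0.65 for Lig1, −0.64 for Mcm5 and −0.62 for Mcm6. It was −0.59 for Mcm4 and for Tk1, −0.58 for Mcm7, −0.56 for Pole and −0.54 for Cdc6. It was −0.49 for Rpa1, for Rpa2 and for Cdc45, −0.46 for Rfc5, −0.45 for Prim2 and −0.40 for Mcm3. These 21 are the genes already counted above and add no independent evidence.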

How the results depend on the processing

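No called gene turned direction under any alternative; of 1927 single-gene results, 1469 kept their call and 458 lost it. The members called were 7 with IL-6 in WT, 22 with IL-6 in HET, 11 for HET against WT in control, 19 after IL-6, and 21 for the difference. Leaving out 1 library at a time gave 2 to 10, 8 to 26, 0 to 14, 3 to 22 and 5 to 22, in that order. The lowest counts came without WT IL-6 library 1 (WT and after IL-6) and without HET control library 1 (HET, control and difference). Among fits without 1 library, the same fits gave the fewest calls over all genes. Without HET IL-6 library 1 the counts were 10 in HET, 6 after IL-6 and 10 for the difference, and without library 2 they were 12, 4 and 8. Without WT control library 1, 3 were called in WT. Called without every library in turn were 1, 8, 0, 2 and 5 members, the 5 being Lig1, Mcm10, Mcm5, Mcm6 and Rrm1.

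Without both HET libraries numbered 1 the counts were 3, 1, 0, 4 and 0, and without both numbered 2 they were 3, 5, 2, 3 and 6. Each leaves 1 library in the HET arms, assumed to vary like the other groups. Over all genes fewer were called as well. Without both WT libraries numbered 2, 21 were called in WT, and without both numbered 1, 20 in control. In each of these WT fits more of all genes were called as well, and 1 library was left in each WT group. The members' medians there were 0.15 in WT and 0.23 in control. The median difference ran from −0.53 to −0.42 over all alternatives. With limma voom 3 were called in WT and 7 in control, where 1646 and 425 of all genes were called. With only the 4 libraries compared, 2 were called in WT and 7 in control, where 1746 and 437 of all genes were. With the GC and length offset the members called after IL-6 were 0 higher and 17 lower, where 810 of all genes were called higher and 794 lower. The cause of these shifts was not tested.

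The replicate block, with the number as a block, gave 3, 16, 7, 12 and 10 called members. Over all genes it gave 1793, 1727, 339, 2288 and 506. Same-numbered libraries were not shown to be pairs: the correlation of their deviations was −0.11 in WT and 0.15 in HET. With the numbers crossed in WT, an alternative chosen after seeing the data, the replicate block gave 17 in WT and 32 for the difference. Over all 13721 genes it gave 4443 and 3121.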
